A study of Mus musculus with 18 samples.

Results

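*Ccr7*, *Ccr1*, *Ccr2*, *Ccr4*, *Ccrl2*, *Cxcr4*, *Cxcr2*, *Cx3cr1* and *Cxcr3* encode receptors of chemokines, the secreted proteins that direct leukocyte migration, or a related binder. They are the 9 genes described here, and were taken by symbol from the 62197 genes of the deposited expression table. Each of the 9 matched 1 entry of the table, and none had a second entry.

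Bulk RNA-seq was made from mouse bone marrow-derived DCs grown for 10 days with granulocyte-macrophage colony-stimulating factor. Cells came from wild-type mice (cPLA_2_ WT) or from mice with a conditional knockout (cPLA_2_ KO) of *Pla2g4a*, which encodes the phospholipase cPLA_2_. They were left untreated, confined or given LPS, in 6 groups of 3 libraries. Nonconfined cPLA_2_ WT and cPLA_2_ KO DCs received no treatment and were collected when the culture ended. Confined cPLA_2_ WT and cPLA_2_ KO DCs were held at a height of 3 µm and collected 4 h after confinement. LPS-treated DCs labelled cPLA_2_ WT or cPLA_2_ KO received LPS at 100 ng ml-1 for 30 min, were washed and were collected on the following day. The 30 min come from the sample entries, and the Methods of the paper give a slightly shorter exposure. The labels give no age for the mice. Because the collection times differed between treatments, time in culture and treatment cannot be told apart. The protocol text attached to every sample mentions LPS, and the titles and treatment entries, which name it for the LPS groups alone, were followed. The cPLA_2_ KO mice carry floxed *Pla2g4a* alleles and Cre under the CD11c (*Itgax*) promoter, so that the deletion depends on how far the cells have expressed CD11c. Such cultures also yield granulocytes and macrophages, from which the Methods separate DCs by adhesion. Libraries came from polyadenylated RNA with a pair of stranded kits, and which library used which kit is not given.

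Chemokine receptors are mostly G protein-coupled receptors that signal through inhibitory G proteins and are switched off by receptor kinases, arrestins and regulators of G protein signalling. In DCs, CCR7 guides migrating cells along CCL19 and CCL21 into lymphatic vessels and lymph nodes, whereas receptors such as CCR1 and CCR2 belong to precursors and immature cells drawn to inflamed tissue. Receptor mRNA is 1 layer of this control, because surface display, ligand scavenging and glycosylation also set how a cell responds.

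The labels were checked before the receptors were compared. *Pla2g4a* was present at 697, 686 and 770.4 normalized counts in nonconfined cPLA_2_ WT libraries 1, 2 and 3 and at 548, 542 and 533 in nonconfined cPLA_2_ KO libraries. Confined cPLA_2_ WT libraries held 1369, 1430.3 and 1321 normalized counts, and confined cPLA_2_ KO libraries 923, 871 and 919.5. The labelled genotypes thus did not overlap in these treatments, with lower but persisting mRNA in cPLA_2_ KO cells. In the LPS groups, libraries labelled cPLA_2_ WT held 1005, 969 and 967 normalized counts of *Pla2g4a*, and those labelled LPS cPLA_2_ KO held 1065, 1032 and 1028, so that the order was the opposite one. *Ddx3y*, on the Y chromosome, was near 0 in the nonconfined and confined cPLA_2_ WT libraries (highest value 3.05) and between 874 and 1036 in the cPLA_2_ KO libraries. In the libraries labelled LPS cPLA_2_ WT it was present at 1271, 0 and 662, and in those labelled LPS cPLA_2_ KO at 2.12, 1476 and 783.4 normalized counts. *Ddx3y* therefore divides the nonconfined and confined libraries by genotype label but not the LPS libraries, where each labelled group held a library near 0, 1 of intermediate level and 1 of high level. *Xist*, transcribed from the inactive X chromosome, was present in all 18 libraries. The closest pairs of LPS libraries joined both labels. The mean squared difference per gene, in units of counting error, was 5.11 between LPS cPLA_2_ WT library 2 and LPS cPLA_2_ KO library 1 and 6.11 between LPS cPLA_2_ WT library 3 and LPS cPLA_2_ KO library 3. Within the labelled groups it was between 9.62 (LPS cPLA_2_ KO libraries 2 and 3) and 42.9 (LPS cPLA_2_ WT libraries 1 and 2), and LPS cPLA_2_ WT library 1 was closest to a library of its own label. The libraries were left in their labelled groups and none was relabelled, so every LPS value below belongs to a library labelled cPLA_2_ WT or cPLA_2_ KO. Sex of the donor and genotype cannot be told apart in the nonconfined and confined libraries.

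Markers of the labelled cell type were present. All 10 DC markers checked (*Itgax*, *Cd74*, *H2-Ab1*, *H2-Aa*, *H2-Eb1*, *Zbtb46*, *Flt3*, *Ciita*, *Batf3* and *Irf4*) were detected in every group, and the most abundant, *Cd74*, ranged from 189379 to 336000.0 normalized counts over the 18 libraries. Markers of granulocytes and macrophages were present as well and are given after the receptors.

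Levels are normalized counts, that is, reads per gene divided by the library's size factor, with no scaling for gene length. Libraries held between 33027230 and 61300021 reads on genes. Differences are log2 fold changes of normalized counts with 1 added, tested by limma over the 17875 genes with 10 or more normalized counts in 3 or more libraries, among them all 9 receptor genes. This scale understates the change of genes with few counts, such as *Cx3cr1* and *Cxcr3*. A gene passed if its adjusted p was under 0.05, whatever the size of its change. The paper calls the libraries biological replicates, but no label says whether those of a group came from separate mice or cultures, so the p-values measure only the spread between these libraries.

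Compared per kilobase of the canonical transcript, *Ccr7* and *Ccr1* were the most abundant of the 9 mRNAs in nonconfined cPLA_2_ WT DCs, with mean levels of 7998 and 7469 normalized counts per kb. *Cxcr4* followed with a mean level of 2259 per kb. *Ccr2*, *Ccrl2*, *Ccr4* and *Cxcr2* lay between 127 and 363 per kb, and *Cx3cr1* and *Cxcr3* were close to the limit of detection at 3.37 and 6.3 per kb. In confined cPLA_2_ WT DCs the order began with *Ccr7* (16588 per kb), *Ccr1* (8996) and *Ccrl2* (3309), the last of which thereby passed *Cxcr4* (2169.8). In confined cPLA_2_ KO DCs *Ccr1* led with 8733 per kb, ahead of *Ccr7* (4491) and *Cxcr4* (3311).

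**Figure D1:**
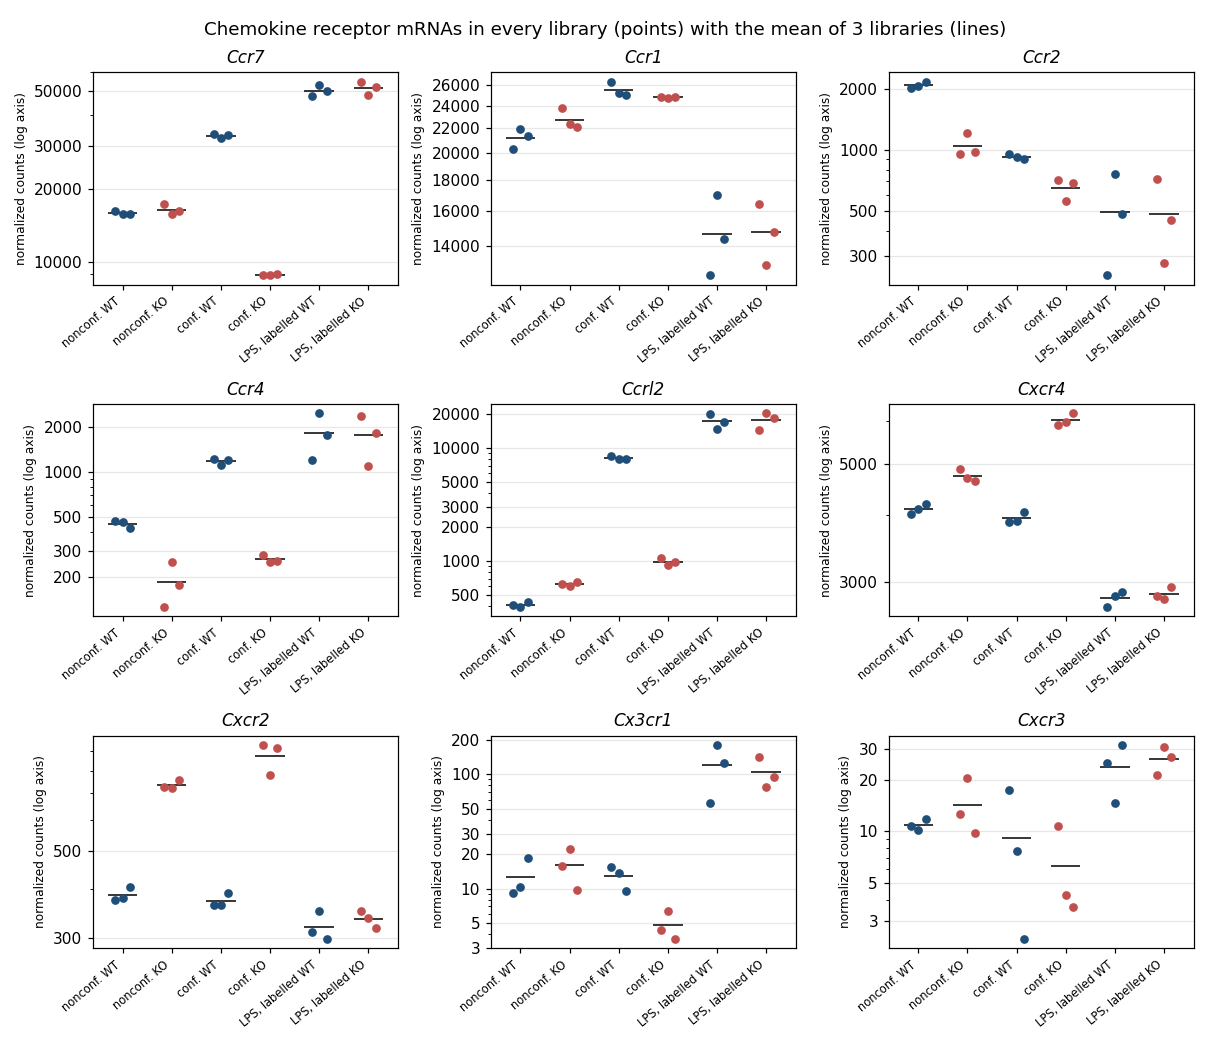
Normalized counts (y axes, log scale) of the 9 receptor mRNAs in each of the 18 libraries (points) by group (x axes), with lines at the mean of 3 libraries; blue, labelled cPLA_2_ WT; red, labelled cPLA_2_ KO. With confinement, *Ccr7* means were 32945 (cPLA_2_ WT) and 8919 (cPLA_2_ KO), on either side of the nonconfined groups, whereas *Cxcr4* and *Cxcr2* were highest in confined cPLA_2_ KO DCs.

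*Ccr7* (chr11:99035025-99045904 on GRCm39, minus strand), the lymph node homing receptor, was present at 16165.5, 15734 and 15753 normalized counts in the nonconfined cPLA_2_ WT libraries and at 17366, 15815 and 16173 in the nonconfined cPLA_2_ KO libraries. Confined cPLA_2_ WT libraries held 33397, 32199 and 33237, and confined cPLA_2_ KO libraries 8907, 8891 and 8957. The nonconfined groups overlapped, every confined cPLA_2_ WT library lay above them, and every confined cPLA_2_ KO library lay below them. The libraries labelled LPS cPLA_2_ WT held 47815, 53026 and 50041.5 and those labelled LPS cPLA_2_ KO held 54853, 48218 and 52112, which were the highest values and overlapped each other. From high to low the group means were 51727 ± 3334 (SD, n = 3) in DCs labelled LPS cPLA_2_ KO, 50294 ± 2615 (n = 3) in DCs labelled LPS cPLA_2_ WT, 32945 ± 650.5 (n = 3) in confined cPLA_2_ WT, 16451 ± 812 (n = 3) in nonconfined cPLA_2_ KO, 15884 ± 244 (n = 3) in nonconfined cPLA_2_ WT and 8919 ± 34.4 (n = 3) in confined cPLA_2_ KO DCs. Neighbours in this order overlapped only between the LPS groups and between the nonconfined groups.

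Confinement changed *Ccr7* in opposite directions, by 1.05 in cPLA_2_ WT DCs (SE 0.048, adjusted p = 5.4e-14 from limma) and by -0.88 in cPLA_2_ KO DCs (SE 0.048, adjusted p = 3.51e-12). The difference between these changes, tested as an interaction, was -1.93 (SE 0.068, adjusted p = 2.03e-15). As a ratio of means, *Ccr7* was 3.69-fold lower in confined cPLA_2_ KO than in confined cPLA_2_ WT DCs. The level reached in confined cPLA_2_ WT DCs was below that of LPS-treated DCs (log2 fold change -0.61, standard error 0.048, adjusted p = 8.89e-10 against the libraries labelled cPLA_2_ WT). Over the settings tried, this difference lay between -0.65 and -0.32. With both LPS labels pooled, LPS raised *Ccr7* by 1.66 (SE 0.034, adjusted p = 1.08e-20). When every library was scaled to the same total, the change with confinement in cPLA_2_ WT DCs was 0.83, and the interaction was -1.75, so that neither direction depended on the scaling. These are levels in a mixed culture, in which fewer cells of a type and less RNA per cell cannot be told apart.

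*Ccrl2* (chr9:110883554-110886588, minus strand) encodes an atypical receptor that binds the chemoattractant chemerin without classical signalling. Its mRNA was present at 411.5, 396.5 and 438 normalized counts in nonconfined cPLA_2_ WT libraries and at 632, 608 and 663 in nonconfined cPLA_2_ KO libraries. Confined cPLA_2_ WT libraries held 8567, 7991 and 8012, whereas confined cPLA_2_ KO libraries held 1064, 928 and 979. All of these groups were separate from each other, and both confined groups were above both nonconfined groups. The ratio of confined to nonconfined means was 19.7 for cPLA_2_ WT DCs, compared with 1.56 for cPLA_2_ KO DCs. The log2 fold changes were 4.30 (SE 0.099, adjusted p = 4.72e-19) and 0.64 (SE 0.099, adjusted p = 1.83e-05), respectively, with an interaction of -3.66 (SE 0.14, adjusted p = 8.95e-15). Unlike *Ccr7*, *Ccrl2* thus rose in both genotypes, by less in cPLA_2_ KO DCs, and was already higher in nonconfined cPLA_2_ KO than in nonconfined cPLA_2_ WT DCs (log2 fold change 0.61, standard error 0.099, adjusted p = 0.000544). The highest levels were those of the libraries labelled LPS cPLA_2_ WT (19884, 14801 and 17063) and LPS cPLA_2_ KO (14488, 20248 and 18316.5), which overlapped.

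*Ccr4* (chr9:114319384-114326561, minus strand), the receptor of CCL17 and CCL22, was present at 469, 467 and 425.5 normalized counts in nonconfined cPLA_2_ WT and 127, 250.4 and 178 in nonconfined cPLA_2_ KO libraries. It rose to 1215, 1109 and 1197.5 in confined cPLA_2_ WT libraries, and confined cPLA_2_ KO libraries held 279.5, 254 and 257. None of these groups overlapped, and every cPLA_2_ KO library, confined or not, lay below every nonconfined cPLA_2_ WT library. The change with confinement was 1.37 (SE 0.24, adjusted p = 4.8e-05) in cPLA_2_ WT DCs. For cPLA_2_ KO DCs it was 0.56 (SE 0.24, adjusted p = 0.0624), which missed the threshold, and the interaction of -0.81 (SE 0.34, adjusted p = 0.0883) missed it too. Both depended on the libraries in the fit. Without the 6 LPS libraries, an alternative chosen after the data were seen, the adjusted p was 0.00617 for the change in cPLA_2_ KO DCs and 0.00934 for the interaction. For the interaction this is also the planned fit of the compared groups alone, whereas for the change in cPLA_2_ KO DCs that planned fit left the call unchanged. The change in cPLA_2_ KO DCs also passed without LPS cPLA_2_ KO library 1 (adjusted p = 0.0373) or 2 (0.0268), without LPS cPLA_2_ WT library 1 (0.0338) or 2 (0.0361), and without nonconfined cPLA_2_ KO library 2 (0.012). The interaction passed without LPS cPLA_2_ KO library 2 (0.0398), LPS cPLA_2_ WT library 1 (0.0497) or nonconfined cPLA_2_ KO library 1 (0.0258). The genotypes differed in the direct comparisons, by -1.34 (SE 0.24, adjusted p = 0.00126) in nonconfined and by -2.15 (SE 0.24, adjusted p = 2.43e-07) in confined DCs. The libraries labelled LPS cPLA_2_ WT held 1193, 2450.3 and 1760.1 and those labelled LPS cPLA_2_ KO held 2339, 1101 and 1801, a wide spread that reached down to the level of confined cPLA_2_ WT DCs.

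*Ccr1* (chr9:123762161-123768730, minus strand), a receptor of CCL3, CCL5 and other inflammatory ligands, changed little with confinement. Its levels were 20318, 21944 and 21325 in nonconfined cPLA_2_ WT, 23768, 22405 and 22098 in nonconfined cPLA_2_ KO, 26355, 25170.3 and 25069 in confined cPLA_2_ WT and 24836, 24731.5 and 24783 in confined cPLA_2_ KO libraries. The 4 groups did not overlap, but their means lay within a narrow range. Confinement raised *Ccr1* by 0.27 (SE 0.081, adjusted p = 0.00771) in cPLA_2_ WT DCs, a call that was lost with the same total per library (0.04, adjusted p = 0.695). In cPLA_2_ KO DCs the change was 0.12 (SE 0.081, adjusted p = 0.228), which passed in the compared groups alone (0.0456) and without the LPS libraries (0.0166). The interaction was -0.15 (SE 0.12, adjusted p = 0.401), whose sign and that of the difference between the confined genotypes turned with the same total per library. The LPS libraries were the lowest, with 12503, 17031 and 14343 in those labelled cPLA_2_ WT and 16442, 13018 and 14762 in those labelled cPLA_2_ KO. Pooled over the labels, the change with LPS was -0.59 (SE 0.058, adjusted p = 6.78e-09). Over the settings tried, it lay between -1.06 and -0.44 under the cPLA_2_ WT label and between -1.11 and -0.55 under the cPLA_2_ KO label.

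*Ccr2* (chr9:123901986-123913594, plus strand), the CCL2 receptor of monocytes and their progeny, was highest in nonconfined cPLA_2_ WT libraries, at 2012, 2060.2 and 2167 normalized counts. It was present at 955, 1204 and 977 in nonconfined cPLA_2_ KO, 959, 917 and 904 in confined cPLA_2_ WT and 712, 558 and 684 in confined cPLA_2_ KO libraries. Nonconfined cPLA_2_ WT libraries stood above all others, confined cPLA_2_ WT libraries overlapped with nonconfined cPLA_2_ KO libraries, and confined cPLA_2_ KO libraries were lower than either. Confinement lowered *Ccr2* in cPLA_2_ WT DCs (log2 fold change -1.17, standard error 0.29, adjusted p = 0.00165). In cPLA_2_ KO DCs the change of -0.68 (SE 0.29, adjusted p = 0.0604) missed the threshold in the fit of all libraries, passed in edgeR (adjusted p = 0.0385), passed in the compared groups alone (0.00108) and passed without the 6 LPS libraries (4.2e-06). It also passed without LPS cPLA_2_ KO library 1 (0.028) or 2 (0.0274) and without LPS cPLA_2_ WT library 1 (0.0127) or 2 (0.0217). The interaction was 0.48 (SE 0.41, adjusted p = 0.434) over all libraries and had an adjusted p of 0.00699 in the compared groups alone, which here are all but the LPS libraries, with a smaller decrease in cPLA_2_ KO DCs. Between the confined genotypes, which did not overlap, the difference was -0.51 (SE 0.29, adjusted p = 0.174), and it passed in the compared groups alone (0.000665) and without the LPS libraries (0.000124). In nonconfined DCs *Ccr2* was 1.99-fold lower in cPLA_2_ KO cells (adjusted p = 0.0347). It lost its call without nonconfined cPLA_2_ KO library 1 (adjusted p = 0.131) or 3 (0.115) and without nonconfined cPLA_2_ WT library 1 (0.0826), 2 (0.0936) or 3 (0.107). The call was also lost with no filter on low genes (0.0659) and with a block for the replicate number (0.0566), although the groups did not overlap.

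The fit of all libraries pools the spread within the 6 groups, the LPS groups among them. *Ccr2* was present at 242, 759 and 484 normalized counts in the libraries labelled LPS cPLA_2_ WT and at 720.2, 277 and 454 in those labelled LPS cPLA_2_ KO. The labels overlapped completely, and the range within each label was wider than in the nonconfined or confined groups. Pooled over the labels, *Ccr2* changed by -1.71 (SE 0.20, adjusted p = 1.56e-07) with LPS. *Ccr2* and *Ccr1* lie among closely related genes on chromosome 9, and reads shared between such copies would make their values less certain.

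*Cxcr4* (chr1:128515936-128520036, minus strand), the CXCL12 receptor that retains cells in bone marrow and also guides skin DCs, was present at 4029, 4114 and 4206 normalized counts in nonconfined cPLA_2_ WT and 4890.0, 4698 and 4629 in nonconfined cPLA_2_ KO libraries. Confined cPLA_2_ WT libraries held 3893, 3911 and 4056 and confined cPLA_2_ KO libraries 5908, 5981 and 6207. The confined cPLA_2_ WT libraries overlapped with the nonconfined cPLA_2_ WT libraries, and the confined cPLA_2_ KO libraries were above every other library. The change with confinement was -0.06 (SE 0.043, adjusted p = 0.257) in cPLA_2_ WT DCs, which became -0.28 (adjusted p = 1.23e-05) with the same total per library. Confined cPLA_2_ KO DCs had a change of 0.35 (SE 0.043, adjusted p = 8.16e-07), and the interaction was 0.41 (SE 0.06, adjusted p = 2.14e-05). Neither passed under the thresholds of the Methods, which ask for 1.5-fold. LPS libraries were lowest, with 2698, 2825 and 2875 in those labelled cPLA_2_ WT and 2827, 2789.6 and 2944 in those labelled cPLA_2_ KO.

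*Cxcr2* (chr1:74193147-74200405, plus strand), the receptor of CXCL1 and CXCL2 best known from neutrophils, was present at 375, 379.5 and 404 normalized counts in nonconfined cPLA_2_ WT and 363, 364 and 391 in confined cPLA_2_ WT libraries. In cPLA_2_ KO libraries it was present at 725.5, 724 and 756 without and 929, 778 and 916 with confinement. The cPLA_2_ WT groups overlapped, and every cPLA_2_ KO library was above every cPLA_2_ WT library in these treatments. The genotype difference was 0.93 (SE 0.085, adjusted p = 8.9e-07) in nonconfined and 1.22 (SE 0.085, adjusted p = 1.22e-10) in confined DCs. Confinement raised *Cxcr2* in cPLA_2_ KO DCs by 0.25 (SE 0.085, adjusted p = 0.0222), a call that was lost without confined cPLA_2_ KO library 1 (adjusted p = 0.0991) or 3 (0.0915) or nonconfined cPLA_2_ KO library 1 (0.0581) or 2 (0.054). In cPLA_2_ WT DCs it changed by -0.05 (SE 0.085, adjusted p = 0.644), and with the same total per library by -0.27 (adjusted p = 0.00804). The interaction was 0.30 (SE 0.12, adjusted p = 0.0769), and passed without confined cPLA_2_ KO library 2 (adjusted p = 0.0246) and with the same total per library (0.00334). The libraries labelled LPS held 310.1, 351 and 298.5 (cPLA_2_ WT) and 350.0, 336 and 317 (cPLA_2_ KO), which overlapped and lay below all other libraries. Under the cPLA_2_ KO label *Cxcr2* changed by -1.13 (SE 0.085, adjusted p = 1.29e-10) with LPS. Under the cPLA_2_ WT label it changed by -0.27 (SE 0.085, adjusted p = 0.00776), and by -0.79 to -0.23 over the settings tried.

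*Cx3cr1* (chr9:119877749-119897363, minus strand), the receptor of the membrane-bound ligand CX3CL1, had few reads outside the LPS groups. It was present at 9.14, 10.2 and 18.7 normalized counts in nonconfined cPLA_2_ WT, 15.7, 22.3 and 9.7 in nonconfined cPLA_2_ KO, 15.5, 13.7 and 9.48 in confined cPLA_2_ WT and 4.32, 6.4 and 3.65 in confined cPLA_2_ KO libraries. Only the confined cPLA_2_ KO libraries were apart, below the other 3 of these groups. The libraries labelled LPS cPLA_2_ WT held 56.5, 179 and 126 and those labelled LPS cPLA_2_ KO held 142, 77.8 and 95, all above the remaining libraries. The change with confinement in cPLA_2_ KO DCs was -1.50 (SE 0.42, adjusted p = 0.00591). The interaction was -1.56 (SE 0.60, adjusted p = 0.0596), and it passed without LPS cPLA_2_ WT library 1 (0.0375), confined cPLA_2_ KO library 2 (0.0481), nonconfined cPLA_2_ KO library 3 (0.0338) or nonconfined cPLA_2_ WT library 3 (0.035). The difference between the confined genotypes was -1.27 (SE 0.42, adjusted p = 0.0211), and it lost its call without confined cPLA_2_ KO library 1 (adjusted p = 0.0537) or 3 (0.0742) or confined cPLA_2_ WT library 1 (0.0729) or 2 (0.0587). It was also lost in edgeR (0.0519), with no filter (0.0506), in the compared groups alone (0.0721) and with a pseudocount of 5 (0.0561). With so few reads outside the LPS groups, these differences were near the limit of what the depth could show.

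*Cxcr3* (chrX:100775138-100777753, minus strand), the receptor of CXCL9, CXCL10 and CXCL11, was the gene with the fewest counts overall. It ranged from 2.37 to 20.5 normalized counts in the 12 nonconfined and confined libraries and from 14.6 to 31.7 in the LPS libraries. Every group overlapped with its neighbour in the order of means. In cPLA_2_ KO DCs the change with confinement was -1.14 (SE 0.53, adjusted p = 0.0867), which passed without confined cPLA_2_ KO library 1 (adjusted p = 0.0327) or confined cPLA_2_ WT library 3 (0.0453).

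Confinement changed 5 of the 9 receptors in cPLA_2_ WT DCs at an adjusted p under 0.05 (limma), 4 higher and 1 lower, in a comparison in which 28.2% of all genes tested were higher and 28.4% lower. Of the 9, 5 passed in cPLA_2_ KO DCs, 3 higher and 2 lower, against 22.8% and 23.4% of all genes. The interaction passed for 3 receptors, 1 positive and 2 negative, against 10.2% and 15.6% of all genes. In confined DCs, 2 receptors were higher and 4 lower in cPLA_2_ KO than in cPLA_2_ WT cells, against 18.8% and 20.6%. In nonconfined DCs, 3 were higher and 2 lower in cPLA_2_ KO cells, against 4.78% and 4.11% of all genes. These counts are of genes chosen with earlier results known. With confinement the 9 receptors had a median log2 fold change of 0.06 (cPLA_2_ WT) or 0.12 (cPLA_2_ KO), beside -0.01 and 0.01 over all genes tested. Their median was -0.60 for the interaction and -0.51 between the confined genotypes, beside 0.05 and 0.04. Between the nonconfined genotypes it was 0.20, where the median of all genes was close to 0. The count of 3 interactions was 5 without LPS cPLA_2_ WT library 1 and 5 without confined cPLA_2_ KO library 2.

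**Figure D2:**
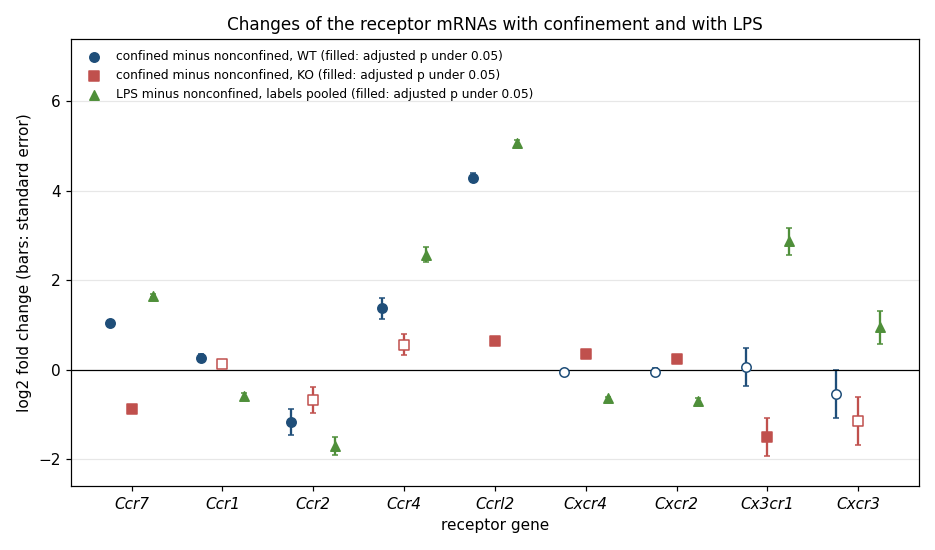
Log2 fold changes (y axis, with bars of 1 standard error) of the 9 receptor genes (x axis) with confinement in cPLA_2_ WT DCs (blue circles), with confinement in cPLA_2_ KO DCs (red squares) and with LPS over both labels (green triangles); filled symbols had an adjusted p under 0.05. *Ccr7* rose by 1.05 in cPLA_2_ WT DCs and fell by 0.88 in cPLA_2_ KO DCs, and *Ccrl2* rose by 4.30 and 0.64.

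LPS changed 8 receptors in the libraries labelled cPLA_2_ WT, 4 higher and 4 lower, where 33.4% of all genes tested were higher and 29.4% lower. In those labelled cPLA_2_ KO it also changed 8, 4 higher and 4 lower, against 33.4% and 30.1%. The medians of the 9 were 1.00 and 0.89, beside 0.03 and 0.02 over all genes. *Ccr7*, *Ccr4*, *Ccrl2* and *Cx3cr1* were the higher ones under both labels, and *Ccr1*, *Ccr2*, *Cxcr4* and *Cxcr2* the lower ones. *Cxcr3* passed under neither label but had a change of 0.95 (SE 0.38, adjusted p = 0.0303) when the labels were pooled. Under the cPLA_2_ WT label it also passed in the compared groups alone (adjusted p = 0.0406). The comparisons with LPS and with confinement share the nonconfined libraries, so their values are set side by side only. Under the cPLA_2_ WT label they were 1.66 and 1.05 for *Ccr7*, 5.36 and 4.30 for *Ccrl2*, and 1.93 and 1.37 for *Ccr4*. They were -2.22 and -1.17 for *Ccr2*, -0.55 and 0.27 for *Ccr1*, and -0.56 and -0.06 for *Cxcr4*. Over the settings tried, the values with LPS reached -1.06 for *Ccr1* and -1.07 for *Cxcr4*.

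Confined cPLA_2_ WT DCs differed from DCs labelled LPS cPLA_2_ WT in 8 receptors, 4 higher and 4 lower, in a comparison in which 48.9% of all genes tested passed (median of the 9 -0.56, of all genes -0.02). *Ccr4* was the receptor that missed the threshold (log2 fold change -0.56, standard error 0.24, adjusted p = 0.061), and it passed without LPS cPLA_2_ KO library 1 (adjusted p = 0.0365) or 2 (0.0262), LPS cPLA_2_ WT library 1 (0.00687) or nonconfined cPLA_2_ KO library 1 (0.0432) or 2 (0.0429). It passed as well in edgeR (0.0473), with the labels pooled (0.036) and in the compared groups alone (0.0383). *Cxcr2* and *Cxcr3* lost their calls there when single libraries were left out, *Cxcr2* without LPS cPLA_2_ WT library 1 (0.0934) or 3 (0.142) or confined cPLA_2_ WT library 2 (0.0511) or 3 (0.119), and *Cxcr3* without LPS cPLA_2_ WT library 1 (0.0577) or 3 (0.0899) or confined cPLA_2_ WT library 3 (0.16). In the compared groups alone both were lost (0.0839 for *Cxcr2* and 0.0634 for *Cxcr3*), and *Cxcr3* also in edgeR (0.0575) and with no filter (0.0518). Confined cPLA_2_ KO DCs differed from DCs labelled LPS cPLA_2_ KO in 8 receptors, 3 higher and 5 lower, where 58.7% of all genes passed (median of the 9 -2.04, of all genes 0.02). *Ccr2* was the exception (log2 fold change 0.53, standard error 0.29, adjusted p = 0.126), and it passed without LPS cPLA_2_ KO library 1 (0.0109) or LPS cPLA_2_ WT library 1 (0.0401) and with the same total per library (0.00764). *Ccr7* was 5.8-fold and *Ccrl2* 17.9-fold lower in confined cPLA_2_ KO DCs than in DCs labelled LPS cPLA_2_ KO.

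Between the libraries labelled LPS cPLA_2_ KO and LPS cPLA_2_ WT, limma called 0 receptors and 0 of all genes tested (0%), with 0 receptors and 890 genes at an unadjusted p under 0.05. edgeR and DESeq2 on the recovered reads also called 0 genes. Given the sex-linked values in these libraries, this comparison does not show what the genotype does after LPS. The interaction of LPS and genotype label passed for *Cxcr2* (-0.86, SE 0.12, adjusted p = 0.000619) and *Ccrl2* (-0.58, SE 0.14, adjusted p = 0.0452), where 1.28% of all genes passed. In both cases the nonconfined genotypes differed and the LPS labels did not. The call of *Ccrl2* was lost when any 1 of 15 libraries was left out, with an adjusted p between 0.052 and 0.132, and it held without LPS cPLA_2_ KO library 2, LPS cPLA_2_ WT library 2 or nonconfined cPLA_2_ KO library 2. Neither *Ccr4* nor *Ccr2* passed in the limma fit of all libraries. Their interactions there were 1.29 (SE 0.34, adjusted p = 0.0663) and 1.01 (SE 0.41, adjusted p = 0.299). *Ccr4* passed without LPS cPLA_2_ KO library 2 (1.59, adjusted p = 0.00537), LPS cPLA_2_ WT library 2 (1.55, 0.00895) or nonconfined cPLA_2_ KO library 2 (1.54, 0.0192). *Ccr2* passed without LPS cPLA_2_ WT library 2 (1.39, 0.0357). Under the thresholds of the Methods both passed.

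Set side by side in the order LPS cPLA_2_ WT library 2, LPS cPLA_2_ KO library 1, LPS cPLA_2_ WT library 3, LPS cPLA_2_ KO library 3, LPS cPLA_2_ WT library 1 and LPS cPLA_2_ KO library 2, *Ddx3y* was present at 0, 2.12, 662, 783.4, 1271 and 1476 normalized counts. In the same order *Ccr7* was present at 53026, 54853, 50041.5, 52112, 47815 and 48218, and *Ccr4* at 2450.3, 2339, 1760.1, 1801, 1193 and 1101. In these 6 libraries *Ccr7*, *Ccr4*, *Ccr1*, *Ccr2* and *Cx3cr1* were highest in the libraries with *Ddx3y* near 0 and lowest in those where it was highest. For *Ccr1* the values were 17031, 16442, 14343, 14762, 12503 and 13018, for *Ccr2* 759, 720.2, 484, 454, 242 and 277 and for *Cx3cr1* 179, 142, 126, 95, 56.5 and 77.8. *Ccrl2* was the other way round, with 14801, 14488, 17063, 18316.5, 19884 and 20248. *Cxcr4* showed no such order, with 2825, 2827, 2875, 2944, 2698 and 2789.6. Nor did *Cxcr2*, with 350.6, 350.0, 298.5, 317.1, 310.1 and 336.4, or *Cxcr3*, with 14.6, 21.2, 31.7, 27.1, 25.0 and 30.9. The 8 eosinophil markers, described below, summed to 27547.5, 27528, 38108, 38759, 47547 and 47777 in this order of libraries. The sums of neutrophil and DC markers were likewise lowest where *Ddx3y* was near 0 and highest where it was highest, and the mast cell and basophil sum was the other way round. The part of these cells was not tested, and the relation was noticed in the values.

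How the libraries were scaled shifted most comparisons with a treatment, but hardly that of confined with nonconfined cPLA_2_ KO DCs. With the same total per library, the all-gene median of the log2 fold changes moved to -0.23 for confinement in cPLA_2_ WT DCs, 0.24 for the interaction, 0.19 between the confined genotypes, -0.47 and -0.44 for LPS in libraries labelled cPLA_2_ WT and cPLA_2_ KO, and 0.26 and 0.46 for confined against LPS-treated cPLA_2_ WT and cPLA_2_ KO DCs. The share of higher genes among those called moved from 49.8% to 32.7% for confinement in cPLA_2_ WT DCs and from 39.5% to 70.7% for the interaction. Between genotypes it moved from 47.7% to 69.7% in confined and from 53.8% to 42.0% in nonconfined DCs. For LPS it moved from 53.1% to 25.5% under the cPLA_2_ WT and from 52.6% to 26.2% under the cPLA_2_ KO label. For confined against LPS-treated DCs it moved from 44.2% to 75.0% (cPLA_2_ WT) and from 47.9% to 77.4% (cPLA_2_ KO). No receptor that passed changed direction under any scaling, and the calls of *Ccr1*, *Cxcr4*, *Cxcr2* and *Ccr2* that the scaling moved are given with these genes. The small change of *Cx3cr1* with confinement in cPLA_2_ WT DCs (0.06), which did not pass, turned negative, and the interaction of *Ccr7* with LPS, which did not pass either, also changed its sign.

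The genes whose levels followed *Ccr7* most closely were found by Pearson correlation of log2 levels among the 10553 genes that averaged 100 or more normalized counts. Over the 18 libraries these were *Usp18* (r = 0.997), *Isg20* (0.996), *Slfn8* (0.996), *Gm4951* (0.996) and *Ifi209* (0.995). Over the 12 nonconfined and confined libraries they were *Gbp3* (0.999), *Trex1* (0.997), *Usp18* (0.995), *Ifi47* (0.995, counted together with *Olfr56*) and *Gem* (0.995). *Usp18* was present at 1557 to 1659.5 normalized counts in confined cPLA_2_ KO, 4551 to 4971.5 in nonconfined cPLA_2_ KO, 4928 in nonconfined cPLA_2_ WT, 13278 to 14337 in confined cPLA_2_ WT, 27144 to 27207 in the libraries labelled LPS cPLA_2_ WT and 26818 to 27925.5 in the libraries labelled LPS cPLA_2_ KO. As for *Ccr7*, its nonconfined groups overlapped and lay between the confined groups. Of the other receptors, *Ccr4* (r = 0.89 over 18 and 0.74 over 12 libraries), *Ccrl2* (0.89 and 0.70), *Cx3cr1* (0.87 and 0.61) and *Cxcr3* (0.60 and 0.10) had positive coefficients. By this coefficient *Ccr4* had rank 819 over 18 and 914 over 12 libraries, and *Ccrl2* had rank 781 and 1119, of the 10553 genes. The match was partial over the 12 libraries, because *Cx3cr1* in confined cPLA_2_ WT DCs overlapped with its nonconfined levels and *Ccrl2* was higher in confined cPLA_2_ KO than in nonconfined DCs. *Ccr4* in confined cPLA_2_ KO libraries also lay above its level in nonconfined cPLA_2_ KO libraries. *Cxcr4* (-0.95 and -0.86) and *Cxcr2* (-0.85 and -0.76) had negative coefficients, and those of *Ccr1* (-0.71 and 0.21) and *Ccr2* (-0.46 and 0.23) turned their sign. The points are groups of 3 similar libraries, so these coefficients are descriptions of 6 or 4 groups and carry no test.

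Ligands of the 9 receptors were examined as well. Of 22 ligand genes, 18 could be tested, and 15 were higher and 1 lower in confined than in nonconfined cPLA_2_ WT DCs, with a median log2 fold change of 1.79. Among all genes 28.2% were higher and 28.4% lower in this comparison, which is the background for the lists below as well. Of the 18, 11 were higher and 7 lower in cPLA_2_ KO DCs (median 0.53), against 22.8% and 23.4% of all genes. The interaction was negative for 14 and positive for 0 (median -1.57, beside 0.05 over all genes), against 15.6% and 10.2%. The ligands of CCR7 itself, *Ccl19* and *Ccl21a*, had no read in any library. *Rarres2*, which encodes chemerin, and *Cxcl12* were also below the filter.

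*Ccl22*, a CCR4 ligand, was present at 56584, 54570.4 and 55835 normalized counts in nonconfined cPLA_2_ WT, 74887, 71369.9 and 72314 in confined cPLA_2_ WT and 23619, 21529 and 22453 in confined cPLA_2_ KO libraries. Like *Ccr7* it rose with confinement in cPLA_2_ WT DCs, by 0.39 (SE 0.043, adjusted p = 9.85e-08), and fell in cPLA_2_ KO DCs (-1.17). *Cxcl10*, a CXCR3 ligand, was present at 429, 412 and 459.9 in nonconfined cPLA_2_ WT, 609.6, 542 and 571 in nonconfined cPLA_2_ KO, 44120.5, 42419 and 42869 in confined cPLA_2_ WT and 864, 899 and 841 in confined cPLA_2_ KO libraries. Confined cPLA_2_ WT libraries were thus far above all others outside the LPS groups, and the interaction was -6.04 (SE 0.11, adjusted p = 4.4e-20). *Cxcl11* was present at 2356, 2163.5 and 2184 in confined cPLA_2_ WT and 8.63, 17.1 and 9.11 in confined cPLA_2_ KO libraries, and *Cxcl9* at 305, 283 and 303 and 10.8, 6.4 and 10.9. Both had few or no reads in the nonconfined libraries, so no fold change is given. The mRNA of their receptor, *Cxcr3*, stayed at a few reads.

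Of the CXCR2 ligands, *Cxcl1*, *Cxcl2* and *Cxcl3* rose with confinement in both genotypes. *Cxcl1* was present at 4.57, 13.6 and 7.86 in nonconfined cPLA_2_ WT, 4173.5, 3904 and 3909 in confined cPLA_2_ WT, 11.8, 9.31 and 16.5 in nonconfined cPLA_2_ KO and 220.1, 239.9 and 223 in confined cPLA_2_ KO libraries. It rose by 8.80 in cPLA_2_ WT and by 4.11 in cPLA_2_ KO DCs on the log2 scale, with an interaction of -4.68 (SE 0.31, adjusted p = 1.23e-10). The sizes of these values depend on the added 1, because the nonconfined libraries had few counts. *Ppbp*, another CXCR2 ligand, rose in both genotypes by 5.31 and 5.08, and its interaction did not pass (-0.22, SE 0.37, adjusted p = 0.715). After LPS, 17 ligands were higher and 0 lower in libraries labelled cPLA_2_ WT (median 4.16, beside 0.03 over all genes), and 17 were higher and 1 lower in those labelled cPLA_2_ KO. Of all genes, 33.4% were higher and 29.4% lower under the cPLA_2_ WT label, and 33.4% and 30.1% under the cPLA_2_ KO label.

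A further 17 chemokine and atypical receptors were listed, of which 16 were in the table and 8 could be tested. Confinement raised 6 and lowered 1 in cPLA_2_ WT DCs (median 0.92), and raised 1 and lowered 2 in cPLA_2_ KO DCs (median -0.12), where 22.8% of all genes were higher and 23.4% lower. The interaction was negative for 4 and positive for 0, against 15.6% and 10.2% of all genes. *Ccr3*, the eotaxin receptor, was present at 82.3, 83.6 and 90.4 normalized counts in nonconfined cPLA_2_ WT, 207, 189.5 and 173 in confined cPLA_2_ WT, 246, 219.7 and 221 in nonconfined cPLA_2_ KO and 75.5, 42.7 and 65.6 in confined cPLA_2_ KO libraries. It rose in cPLA_2_ WT and fell in cPLA_2_ KO DCs, with an interaction of -3.06 (SE 0.28, adjusted p = 1.61e-08). *Cxcr5* rose from 42.7, 48.6 and 57 to 233, 256 and 317.4 in cPLA_2_ WT libraries and was present at 47, 49.3 and 43.7 without and 33.4, 14.9 and 55.6 with confinement in cPLA_2_ KO libraries, which overlapped (interaction -3.02, SE 0.40, adjusted p = 5.53e-06). *Cmklr1*, a signalling receptor of chemerin, rose with confinement by 0.43 (cPLA_2_ WT) and 0.55 (cPLA_2_ KO).

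Among 28 genes that couple, desensitize or modify chemokine receptors, 11 were higher and 12 lower with confinement in cPLA_2_ WT DCs (median -0.05), and 10 were higher and 12 lower in cPLA_2_ KO DCs (median -0.09). The interaction was positive for 6 and negative for 5. In cPLA_2_ KO DCs 22.8% of all genes were higher and 23.4% lower, and the interaction was positive for 10.2% and negative for 15.6% of them. *Rgs1*, whose product shortens G protein signals, was present at 1414, 1557 and 1566 in nonconfined cPLA_2_ WT, 11237, 10771 and 10698 in confined cPLA_2_ WT, 1696, 1507 and 1670.2 in nonconfined cPLA_2_ KO and 3696, 3651 and 3725 in confined cPLA_2_ KO libraries. It rose in both genotypes and by less in cPLA_2_ KO DCs (interaction -1.66, SE 0.08, adjusted p = 3.71e-13). *Rgs16* rose by 3.20 and 2.96, and *Rgs18* fell by 1.81 and 1.28, in cPLA_2_ WT and cPLA_2_ KO DCs. *St8sia4*, whose product adds polysialic acid to CCR7, was present at 834, 765 and 802 in nonconfined cPLA_2_ WT, 1175, 1115 and 1173 in confined cPLA_2_ WT, 559, 617 and 641.5 in nonconfined cPLA_2_ KO and 440.2, 451 and 523 in confined cPLA_2_ KO libraries. Like *Ccr7* it rose in cPLA_2_ WT and fell in cPLA_2_ KO DCs, with an interaction of -0.89 (SE 0.11, adjusted p = 2.28e-06). *Plcb3* had an interaction of -0.70 (SE 0.077, adjusted p = 3.71e-07).

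Of the 9 receptor genes, *Ccr1*, *Ccr2*, *Ccr4*, *Ccrl2* and *Cx3cr1* lie on chromosome 9, which holds a cluster of chemokine receptor genes. Of 10 neighbours of these genes, 6 could be tested. Confinement raised 4 and lowered 1 in cPLA_2_ WT DCs (median 0.49). It raised 0 and lowered 2 in cPLA_2_ KO DCs (median -0.10), where 22.8% of all genes were higher and 23.4% lower. The interaction was positive for 1, *Ltf*, and negative for 3, against 10.2% and 15.6% of all genes. For *Ltf* it was 0.50 (SE 0.16, adjusted p = 0.0253). Within the cluster *Ccr1*, *Ccr3* and *Ccr2* changed by 0.27, 1.14 and -1.17 with confinement in cPLA_2_ WT DCs, so they did not share a direction.

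Of 17 markers of mature or migratory DCs, 11 were higher and 6 lower with confinement in cPLA_2_ WT DCs (median 0.58). In cPLA_2_ KO DCs 3 were higher and 10 lower (median -0.58), against 22.8% and 23.4% of all genes (median 0.01). The interaction was negative for 14 and positive for 0 of these markers (median -1.06), against 15.6% and 10.2% of all genes (median 0.05). The largest interaction among the markers was that of *Cd40* (-3.42, SE 0.081, adjusted p = 3.33e-18). Their summed level was 101626, 102225 and 102567 normalized counts in the nonconfined cPLA_2_ WT, 101657, 103180.0 and 105930.0 in the nonconfined cPLA_2_ KO, 178588, 182623 and 189559 in the confined cPLA_2_ WT and 68081, 70337 and 70897.5 in the confined cPLA_2_ KO libraries, each from lowest to highest. The confined cPLA_2_ WT libraries thus lay above and the confined cPLA_2_ KO libraries below the nonconfined ones. Libraries labelled LPS cPLA_2_ WT summed to 487579, 487885 and 489013 and those labelled LPS cPLA_2_ KO to 488087, 496367 and 498074. The most abundant gene over all libraries was *Marcksl1*, and none of the 17 was at 0 in any group. Gene by gene, 4 of the 17 passed as higher in cPLA_2_ WT and lower in cPLA_2_ KO DCs, as *Ccr7* did, 6 as lower in both, 3 as higher in both and 4 as higher in cPLA_2_ WT DCs only. Of those lower in both, *Fscn1* fell with confinement in cPLA_2_ WT (-0.95, SE 0.039, adjusted p = 8.59e-15) and in cPLA_2_ KO DCs (-2.78, SE 0.039, adjusted p = 8.58e-22). The part of a changed share of mature cells in the *Ccr7* values was not tested.

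Of the 10 DC markers, confinement left 1 higher and 7 lower in cPLA_2_ WT DCs (median -0.29). In cPLA_2_ KO DCs, where 22.8% of all genes were higher and 23.4% lower, these markers had 0 higher and 10 lower (median -0.54). They summed to 478984, 483680.0 and 504564 in nonconfined cPLA_2_ WT, 571485, 599749 and 608231 in nonconfined cPLA_2_ KO, 423133, 434352 and 454232 in confined cPLA_2_ WT and 408832, 423967 and 424123 in confined cPLA_2_ KO libraries. The confined groups overlapped in this sum, which *Cd74* and the MHC class II genes make up for the most part. Gene by gene, the interaction was negative for 7 of the 10 and positive for 0 (median -0.42), against 15.6% and 10.2% of all genes. In confined cPLA_2_ KO against confined cPLA_2_ WT DCs 3 of the 10 were lower, 2 of them by more than 1 on the log2 scale, where 20.6% of all genes were lower. Libraries labelled LPS cPLA_2_ WT summed to 608871, 652087 and 723916 and those labelled LPS cPLA_2_ KO to 608164, 669053 and 708089.

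Neutrophil markers differed between the genotypes, as *Cxcr2* did. Of 12 genes, 10 were higher and 0 lower in nonconfined cPLA_2_ KO than in nonconfined cPLA_2_ WT DCs (median 0.50), and 10 were higher and 1 lower in confined cPLA_2_ KO than in confined cPLA_2_ WT DCs (median 1.16, beside 0.04 over all genes). Of all genes, 4.78% were higher and 4.11% lower in the former comparison and 18.8% and 20.6% in the latter. Their summed level was 273145, 276668 and 278037 normalized counts in nonconfined cPLA_2_ WT, 382441, 408387 and 421997 in nonconfined cPLA_2_ KO, 194829, 196469 and 206084 in confined cPLA_2_ WT and 377898, 383290.0 and 391405 in confined cPLA_2_ KO libraries. As for *Cxcr2*, every nonconfined or confined cPLA_2_ KO library was above every such cPLA_2_ WT library. With confinement 1 of the 12 was higher and 6 were lower in cPLA_2_ KO DCs (median -0.37), where 5 did not pass and the sums with and without confinement overlapped. Of all genes, 22.8% were higher and 23.4% lower in this comparison. In cPLA_2_ WT DCs 1 of the 12 was higher and 9 were lower (median -0.65). Libraries labelled LPS cPLA_2_ WT summed to 376454, 392409 and 416064 and those labelled LPS cPLA_2_ KO to 367338, 396505 and 424178, levels near those of the cPLA_2_ KO libraries, at which *Cxcr2* was lowest. *S100a9* was the most abundant gene over all libraries, and none of the 12 was at 0 in any group. The part of neutrophils in the *Cxcr2* difference was not tested.

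Eosinophil markers, which include *Ccr3*, had 6 higher and 1 lower of 8 in nonconfined cPLA_2_ KO against cPLA_2_ WT DCs (median 1.35). Of all genes, 4.78% were higher and 4.11% lower there. In confined DCs these markers had 6 higher and 2 lower (median 1.44), beside 18.8% and 20.6% of all genes. They summed to 33284, 33348 and 33439.6 in nonconfined cPLA_2_ WT, 76508, 78589 and 82529.7 in nonconfined cPLA_2_ KO, 9235.5, 9354.5 and 9858 in confined cPLA_2_ WT and 24679, 25013 and 25560.2 in confined cPLA_2_ KO libraries, so that the sum fell with confinement in both genotypes. The libraries labelled LPS cPLA_2_ WT summed to 27547.5, 38108 and 47547 and those labelled LPS cPLA_2_ KO to 27528, 38759 and 47777. *Prg2* was the most abundant over all libraries, and none of the 8 was at 0. Their part in the receptor values was not tested.

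Of 12 monocyte and macrophage markers, 2 were higher and 6 lower with confinement in cPLA_2_ WT DCs (median -0.25). In cPLA_2_ KO DCs, where 22.8% of all genes were higher and 23.4% lower, these markers had 2 higher and 6 lower (median -0.28). Their sum was 68754, 69643 and 71939.6 in nonconfined cPLA_2_ WT, 75204.5, 75998 and 78398 in nonconfined cPLA_2_ KO, 194155, 195824 and 203870.0 in confined cPLA_2_ WT and 85098, 90124 and 92539 in confined cPLA_2_ KO libraries, and the most abundant gene over all libraries, *Cd14*, ranged from 1809.5 to 136116. None of the 12 was at 0. The sum rose with confinement in both genotypes, although more of the markers fell than rose. *Cd14* carried this rise, from between 1809.5 and 1945 to between 129184 and 136116 in cPLA_2_ WT libraries. In cPLA_2_ KO libraries it rose from between 1857 and 2102 to between 16090 and 16689. The part of these markers in the receptor values was not tested. The libraries labelled LPS cPLA_2_ WT summed to 148502, 150765 and 157014 and those labelled LPS cPLA_2_ KO to 146240.0, 150641 and 152824.

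With confinement in cPLA_2_ KO DCs, 22.8% of all genes were higher and 23.4% lower. Of 7 testable mast cell and basophil markers, 1 was higher and 6 were lower with confinement in each genotype. They summed to 6921, 7008.5 and 7122 in nonconfined cPLA_2_ WT, 10352, 10433 and 10761 in nonconfined cPLA_2_ KO, 14551, 14951 and 15256 in confined cPLA_2_ WT and 5482, 5626 and 5648 in confined cPLA_2_ KO libraries. *Hdc* was the most abundant over all libraries and carried the rise of the sum in cPLA_2_ WT DCs, from between 730.0 and 744 to between 12068.5 and 12596, while the other 6 fell. *Mcpt4* was at or near 0 in all. Of 6 testable T and NK cell markers, 1 was higher and 4 were lower with confinement in cPLA_2_ WT DCs and 0 were higher and 3 lower in cPLA_2_ KO DCs. Their sum lay between 556 and 3241 normalized counts per library, mostly from *Cd3g*. B cell markers summed to between 17.4 and 117, with 0 of 4 testable genes higher and 2 lower with confinement in cPLA_2_ WT DCs. What these cells add to the receptor values was not tested.

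The promoters of *Ccr7*, *Ccr4* and *Ccrl2* are shown because these receptors were higher in confined than in nonconfined cPLA_2_ WT DCs and lower in confined cPLA_2_ KO than in confined cPLA_2_ WT DCs. Each window runs from 270 bases before to 30 bases from the start of the canonical GENCODE transcript on GRCm39. Windows of 300 bases around the starts of all 21751 genes were searched on both strands for GAAANNGAA (in 8.89% of promoters), TGACG (22%), TGANTCA (7.29%), TTCNNNGAA (9%), GAGGAA (27.1%) and the κB motif (8.96%). Capitals mark every match. TGANTCA, which reads alike on both strands, was found in *Ccr7* from -122 to -116 and in *Ccr4* from -125 to -119, and in no other of the 9 promoters. *Ccr7* also held GAGGAA on the reverse strand from -1 to 5, and *Ccrl2* held TGACG from -202 to -198. No match overlapped with a match of another motif. The windows are chr11:99045882-99046181, chr9:114325601-114325900 and chr9:110886325-110886624, all on the minus strand and written in the direction of transcription.
Ccr7: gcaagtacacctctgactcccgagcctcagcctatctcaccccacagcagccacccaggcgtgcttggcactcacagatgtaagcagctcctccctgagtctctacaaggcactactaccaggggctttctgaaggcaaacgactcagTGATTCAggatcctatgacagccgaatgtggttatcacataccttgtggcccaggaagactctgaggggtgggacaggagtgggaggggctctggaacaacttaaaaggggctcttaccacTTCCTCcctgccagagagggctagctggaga
Ccr4: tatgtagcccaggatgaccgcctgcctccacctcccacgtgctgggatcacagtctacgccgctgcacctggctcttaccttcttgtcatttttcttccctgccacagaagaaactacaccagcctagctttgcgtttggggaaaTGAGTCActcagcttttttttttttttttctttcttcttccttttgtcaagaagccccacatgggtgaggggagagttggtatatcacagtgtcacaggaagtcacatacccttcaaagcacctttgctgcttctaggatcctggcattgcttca
Ccrl2: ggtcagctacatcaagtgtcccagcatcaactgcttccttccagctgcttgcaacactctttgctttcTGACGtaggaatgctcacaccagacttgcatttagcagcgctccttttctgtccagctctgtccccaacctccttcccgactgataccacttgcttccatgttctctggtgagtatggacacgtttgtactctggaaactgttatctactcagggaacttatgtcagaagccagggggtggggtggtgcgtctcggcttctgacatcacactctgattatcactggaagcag

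Of the other 6 promoters, that of *Ccr1* held the κB motif from -69 to -60 and GAGGAA, that of *Ccr2* held GAAANNGAA, and that of *Cxcr2* held GAGGAA. Those of *Cxcr4*, *Cx3cr1* and *Cxcr3* held none of the motifs searched, and TTCNNNGAA was in none of the 9. A match describes these letters in this window and not a site of binding.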

How the data were processed

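The deposited values are a gene-level signal that the authors made by mapping reads with STAR 2.7.5a to mm39, counting with featureCounts 1.5.0 on the FAST DB annotation and scaling the counts of every library by a DESeq2 size factor. Of all values, 100% became whole reads (tolerance 1e-06) once multiplied by that factor. The sample labels gave the groups and the replicate numbers. The fit was limma 3.58.1 in R 4.3.3 (lmFit, contrasts.fit, eBayes with trend) on log2(normalized count + 1), with 6 group means over 18 libraries. The filter kept 17875 of 62197 genes (10 or more normalized counts in 3 or more libraries), and p-values were adjusted (Benjamini-Hochberg) over these genes, separately for each comparison. Of the 62197 genes, 37020 have no symbol. At 33027230 to 61300021 reads per library, counting error is small for most of the 9 receptors but not for *Cx3cr1* and *Cxcr3*.

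The members and the gene lists were chosen with earlier results of these data known. The 9 receptors were named throughout. From each list, up to 3 genes with the largest absolute change among those that passed, provided that the mean reached 100 normalized counts, and ligands or paralogs of the receptors could be named. Likeness to *Ccr7* was the Pearson correlation of log2(normalized count + 1) over 18 and over 12 libraries, with the 5 highest genes named. Lists were described by counts and medians alone.

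Alternatives tried were other pseudocounts (0.5 and 5), other filters (none, or 100 normalized counts), other scalings (same total per library, TMM), other tools on the recovered reads (DESeq2 1.42.0, and edgeR 4.0.16 with quasi-likelihood), the compared groups alone, a replicate block, the thresholds of the Methods (unadjusted p of 0.05 with 1.5-fold), an absolute log2 fold change above 1, genotype labels pooled, and each library left out in turn. A fit without the 6 LPS libraries was chosen after the data were seen. On the recovered reads edgeR called 5283 genes higher and 4819 lower with confinement in cPLA_2_ WT DCs. Transcript lengths and starts came from the GENCODE annotation of GRCm39, which overlapped in position with all 9 receptor genes. The fit was also run on simulated data, from which no result is used here. Figures were drawn with matplotlib 3.10.9.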

Additional observations from a re-analysis of the deposited data

Results flagged for a closer look

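The interaction of treatment and genotype label passed for these receptors. For confinement it was -1.93 for *Ccr7*, -3.66 for *Ccrl2* and 0.41 for *Cxcr4*, which lost its call under the thresholds of the Methods. For LPS, with libraries whose *Ddx3y* values did not follow their genotype labels, the interaction was -0.58 for *Ccrl2* and -0.86 for *Cxcr2*. With LPS, *Ccrl2* lost its call without any 1 of 15 libraries, in edgeR and under the thresholds of the Methods. With an absolute log2 fold change above 1, the call of *Cxcr4* with confinement and those of *Ccrl2* and *Cxcr2* with LPS were also lost.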

How the results depend on the processing

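Over 32 settings, no receptor that passed a comparison took the opposite direction. Of 98 pairs of a receptor and a comparison, which leave out the *Ccr7* interaction given next, 56 stayed on the same side of the threshold in all of the 29 to 31 settings in which they were run. Of these, 32 passed and 24 did not.

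The *Ccr7* interaction lay between -1.96 and -1.89 with each library left out and between -1.97 and -1.75 otherwise. With each library left out, the number of receptors passed ranged from 5 to 5 for confinement in cPLA_2_ WT (main value 5), 4 to 7 in cPLA_2_ KO DCs (5), 3 to 5 for the interaction (3), 5 to 6 between confined (6) and 4 to 5 between nonconfined genotypes (5). For LPS it was 8 to 8 under each label (8), 1 to 4 for the interaction with LPS (2), 0 between the LPS labels, 6 to 9 for confined against LPS-treated cPLA_2_ WT (8) and 8 to 9 for cPLA_2_ KO DCs (8).

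With an absolute log2 fold change above 1, the receptors passed were 1 for confinement in cPLA_2_ KO DCs (1150 genes higher and 989 lower of 17875), 1 between nonconfined genotypes (152 and 54), 5 for LPS labelled cPLA_2_ WT (2688 and 2201), 4 for confined against LPS-treated cPLA_2_ WT DCs (1130 and 1342) and 0 for the LPS interaction (6 and 43). The thresholds of the Methods gave 5 for LPS labelled cPLA_2_ WT, where *Ccr1*, *Cxcr4* and *Cxcr2* were lost. They added *Ccr2* and *Cxcr3* for confinement in cPLA_2_ KO DCs, *Ccr4* and *Cx3cr1* for its interaction, and *Ccr2* and *Ccr4* for the LPS interaction. They dropped *Ccr1* for confinement in cPLA_2_ WT DCs and *Cxcr4* and *Cxcr2* in cPLA_2_ KO DCs. The confinement interaction and nonconfined genotypes lost *Cxcr4*, and the LPS interaction lost *Ccrl2*. Confined against LPS-labelled cPLA_2_ WT DCs lost *Cxcr4* and *Cxcr2*. Without the LPS libraries, 8 passed for confinement in cPLA_2_ KO DCs (4225 of 17875 genes higher, 4465 lower) and 5 for the interaction (2350 positive, 2878 negative). The compared groups alone gave the same 5 for this interaction. The LPS interaction had 1 with edgeR, no filter or the compared groups alone. The cause was not tested.

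Libraries of the same number had correlated residuals in confined cPLA_2_ KO and cPLA_2_ WT DCs (0.338, 0.208 and 0.0402 for numbers 1, 2 and 3) and less in the other pairs of groups (-0.142 to 0.183). The main fit did not pair libraries by number, and the replicate block was the alternative that did. The replicate block gave 1 for the LPS interaction (*Ccrl2* adjusted p = 0.0741) and left nonconfined *Ccr2* between genotypes at 0.0566. The depth limits *Cx3cr1* and *Cxcr3*.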
